A study of Rattus norvegicus with 2 samples.

Results

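Complement genes were followed across the cell groups of the rat optic nerve, in 1 library of wild type (WT) cells and 1 library of Nuc1 cells. The 8 genes were chosen by symbol, out of 25399 genes in the files. The rule used no measured value, but earlier results of these data were known when the genes were chosen. They are C1qa (ENSRNOG00000012807), C1qb (ENSRNOG00000012749) and C1qc (ENSRNOG00000012804), C1r (ENSRNOG00000011796) and C1s (ENSRNOG00000011971), C3 (ENSRNOG00000046834), Cfd (ENSRNOG00000033564) and Serping1 (ENSRNOG00000007457). Each of the 8 symbols is listed a single time in the files and had counts in both libraries.

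Complement is a chain of secreted proteins that tags cells and debris for uptake. In the classical pathway the recognition protein C1q, assembled from A, B and C chains, binds its target, and the proteases C1r and C1s that it carries then cleave C4 and C2, so that a convertase forms that cleaves C3. Cfd (factor D, or adipsin) is the protease that starts the alternative pathway loop, and Serping1 encodes the C1 inhibitor, which blocks C1r and C1s. In neural tissue C1q is known as a product of microglia and other macrophages, where it takes part in the removal of synapses, while fibroblasts and astrocytes are known to secrete C1r, C1s, C3 and C1 inhibitor.

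WT cells came from Sprague Dawley rats. Nuc1 rats carry a spontaneous insertion in Cryba1, the gene of βA3/A1-crystallin. No treatment is given for either group, and both are labelled with an age of 7 postnatal days. The number of animals behind each library is not given in the sources used here. The title of the series and the study speak of a mixed culture from the optic nerve, whereas the description of the series speaks of harvested and digested nerve, so that time in culture and its effect on these genes cannot be told apart from the tissue. The Nuc1 mutation is carried by every cell of the animal.

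The droplet-based kit captures the 3′ end of transcripts and counts unique molecular identifiers (UMIs, 1 per captured molecule). The WT library held 34517542 UMIs in 2107 barcodes and the Nuc1 library 35794685 in 1929, with 2 barcode sequences in common. The filters kept 1961 WT and 1780 Nuc1 cells, whose median depths were 14050 and 16567.5 UMIs. Cryba1 had 0 UMIs in both libraries, so the genotypes could not be checked from it. A level is a gene's UMIs in a cell group of 1 library, per 1000000 UMIs of that group (CPM), with exact Poisson 95% intervals. With 1 library per genotype no test between genotypes was possible, no p-value is given, and every interval covers counting error only.

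Clustering without any complement gene gave 10 cell groups. A macrophage-like cluster, led by Pf4, Tyrobp, Lyz2 and Cd68, held 25 WT and 21 Nuc1 cells. The 4 fibroblast-like types are named by leading genes: Ccn3 and Rspo3 (652 WT and 388 Nuc1 cells), Actg2 and Penk (604 and 225), Cldn11 and Thbd (288 and 206) and Inmt and Cyp26b1 (53 and 367). Astrocyte-like cells, led by Gfap, Hspb1 and Fabp7, numbered 106 and 345. A motile cilia cluster held 15 and 110 cells, an oligodendrocyte lineage cluster 50 and 10, dividing cells 145 and 77, and a small cluster led by Ttr and Gldn 23 and 31.

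The names came from leading genes set beside marker lists that hold no complement gene. The sums of these lists therefore describe the groups and do not test the names. Summed macrophage markers reached 18859 CPM in the WT macrophage-like cluster and stayed at or below 40.5 CPM in the other WT groups. Summed astrocyte markers reached 41454 CPM in WT and 52173 CPM in Nuc1 astrocyte-like cells. Motile cilia cells also had 19843 and 25118 CPM of them. Fibroblast markers lay between 12279 and 16651 CPM in the WT fibroblast-like types and between 7736 and 12439 CPM in the Nuc1 ones. They were also high in dividing cells (12418 and 8620 CPM) and in the cluster led by Ttr and Gldn (7515 and 4799 CPM).

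The macrophage-like label did not hold for most Nuc1 cells. Of its 25 WT cells, 15 had a UMI of at least 4 of 14 macrophage markers. Of its 21 Nuc1 cells, 1 did. The remaining 10 WT and 20 Nuc1 cells had at most 1 marker each, with median depths of 2284.5 and 1699.5 UMIs. In the Nuc1 part of the cluster Ptprc, Cx3cr1 and P2ry12 were at 0. The Nuc1 values of the macrophage-like cluster therefore rest on a single macrophage, and values of the cells with at least 4 markers, a limit chosen after the data were seen, stand beside those of the cluster for the members other than C1s.

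Promoter sequences are shown for 4 members that differ in where they were expressed. They are C1qa and C1qb, whose RNA lay in macrophages, C1r, whose RNA was spread over most other groups, and C3. RefSeq's table for build GRCr8 held 5 of the 8 members. C1qc, C1s and Serping1 had no entry. The build of the deposited files is not given in the sources used here. Each line gives the 250 bases before the annotated start, 5′ to 3′ on the strand of the gene. Capitals mark matches, on either strand, to 4 motifs: GGAAGT (core of sites for ETS factors such as PU.1), TTGCGNAA (C/EBP type), TTCNNNGAA (STAT type) and the interferon response element (GAAA, any 2 bases, GAAA). The windows are chr5:154419934-154420183 (minus strand) for C1qa, chr5:154407828-154408077 (minus strand) for C1qb, chr4:159098763-159099012 (plus strand) for C1r and chr9:2201340-2201589 (minus strand) for C3.
C1qa: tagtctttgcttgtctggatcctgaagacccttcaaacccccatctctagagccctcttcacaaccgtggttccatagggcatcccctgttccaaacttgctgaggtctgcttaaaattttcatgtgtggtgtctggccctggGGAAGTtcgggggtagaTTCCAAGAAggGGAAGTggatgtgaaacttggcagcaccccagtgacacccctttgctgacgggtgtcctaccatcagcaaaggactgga
C1qb: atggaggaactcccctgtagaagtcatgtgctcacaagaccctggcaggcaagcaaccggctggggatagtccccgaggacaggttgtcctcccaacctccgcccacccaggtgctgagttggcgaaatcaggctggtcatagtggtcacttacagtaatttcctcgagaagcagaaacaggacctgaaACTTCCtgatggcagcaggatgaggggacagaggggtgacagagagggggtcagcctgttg
C1r: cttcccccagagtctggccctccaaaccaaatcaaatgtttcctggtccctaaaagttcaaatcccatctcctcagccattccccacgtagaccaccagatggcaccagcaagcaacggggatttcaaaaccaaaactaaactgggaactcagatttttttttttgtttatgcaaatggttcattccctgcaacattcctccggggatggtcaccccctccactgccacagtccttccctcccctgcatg
C3: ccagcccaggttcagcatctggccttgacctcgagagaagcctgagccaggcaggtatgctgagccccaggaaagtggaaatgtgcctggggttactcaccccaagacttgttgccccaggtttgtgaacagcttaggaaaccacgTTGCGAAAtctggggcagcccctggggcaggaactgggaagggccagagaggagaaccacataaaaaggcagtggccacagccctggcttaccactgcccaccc

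C1qa had GGAAGT at 2 places, 107 to 102 and 79 to 74 bases before the start, and a STAT-type match between them. C1qb had GGAAGT on the opposite strand, 61 to 56 bases before the start. This motif was present in 19.2% of 33469 promoters in windows of the same length, and the STAT-type motif in 7.67%. C3 held the C/EBP-type motif 104 to 97 bases before the start, which 0.729% of promoters held. C1r held none of the 4 motifs in this window, and neither did Cfd. No match to the interferon response element, found in 3.41% of promoters, lay in the window of any of these 5 members. No 2 of the matches overlapped. A match is a description of the letters and was not tested as a binding site.

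The C1q chains and the proteases C1r and C1s were highest in different cell groups. The recognition chains C1qa, C1qb and C1qc were highest in macrophage-like cells in both libraries, and so was Cfd. C1r was highest in the Inmt and Cyp26b1 fibroblast type and C1s in the Ccn3 and Rspo3 type, in both libraries. The highest group was thus the same in both libraries for 6 of 8 members, beside 46.4% of 11290 genes with at least 100 UMIs. The other 2, C3 and Serping1, were highest in macrophage-like cells in the WT library, whereas in the Nuc1 library C3 was highest in the motile cilia cluster and Serping1 in the Ccn3 and Rspo3 type. Of the same 11290 genes, 2.87% were highest in macrophage-like cells in both libraries, as 4 members were.

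**Figure D1:**
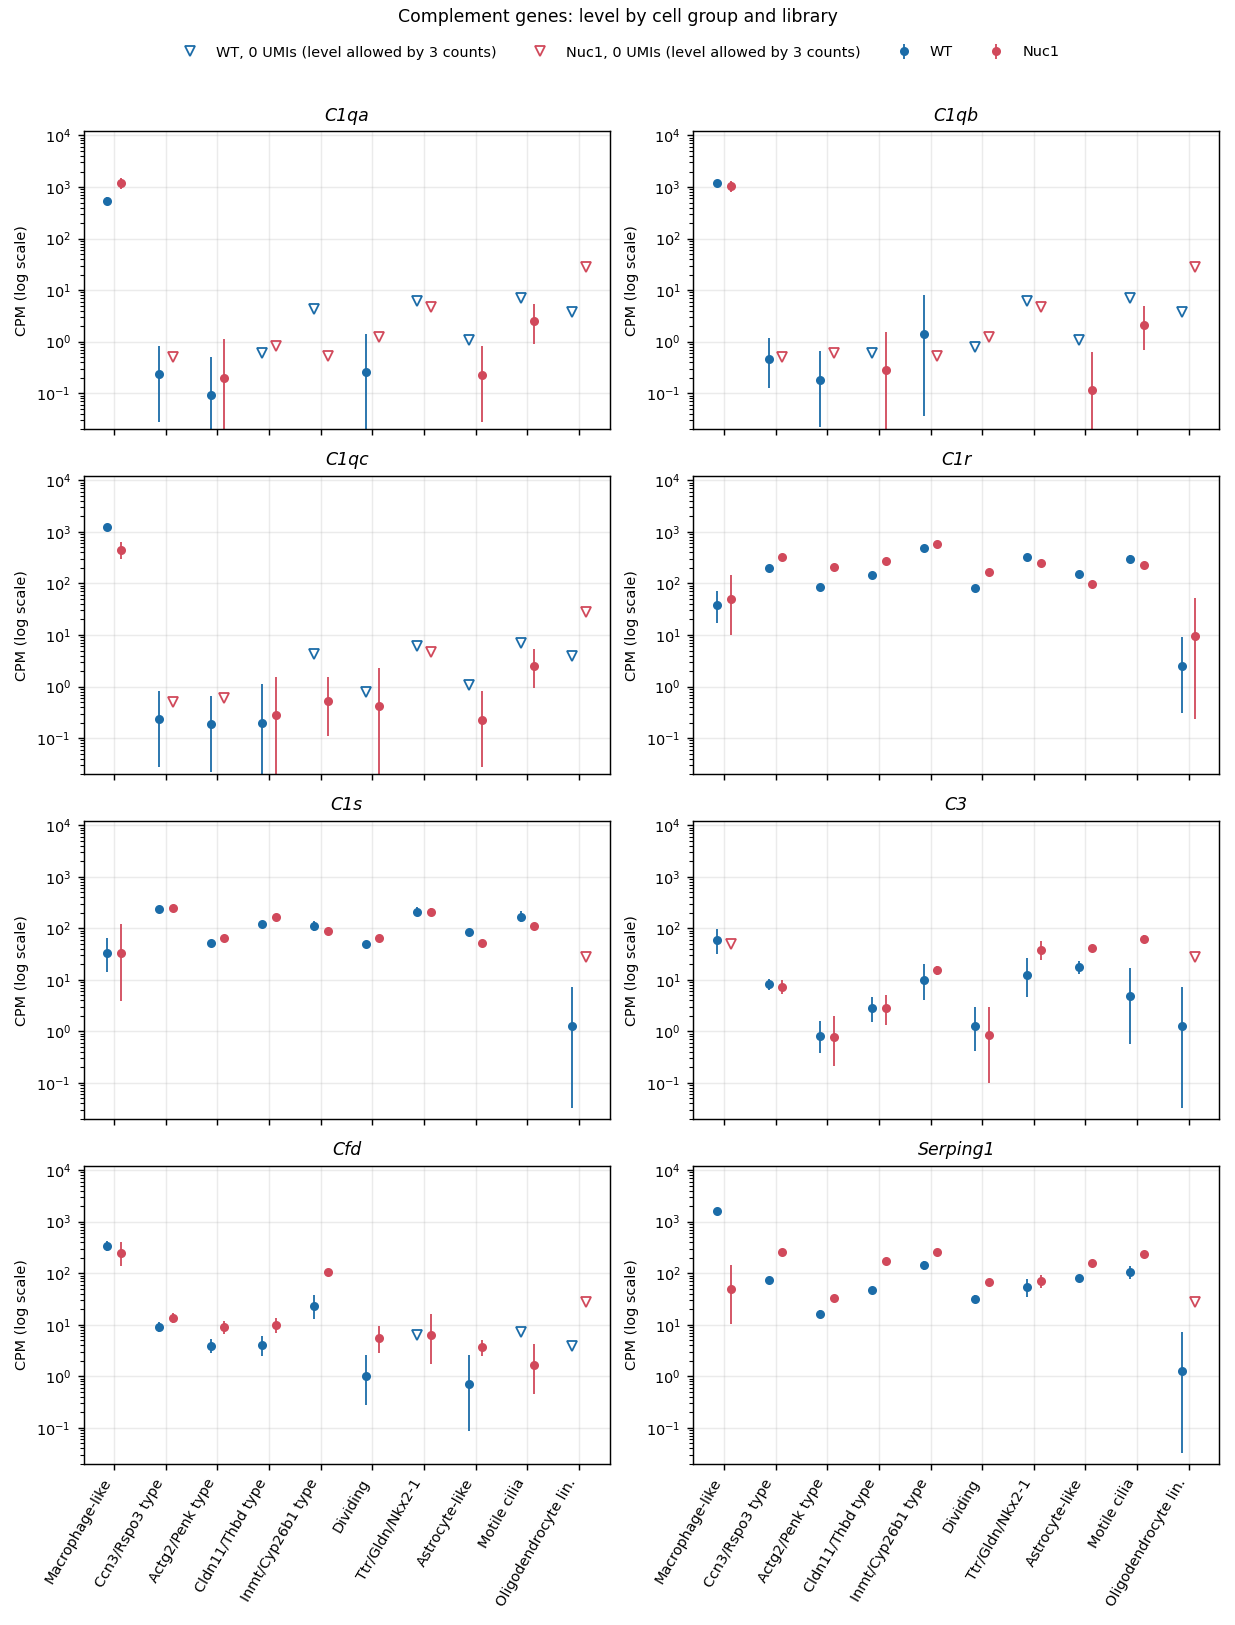
Level of each of the 8 complement genes (CPM, log scale) in each of 10 cell groups, in the WT library (blue) and the Nuc1 library (red). Points are sums over the cells of a group with exact Poisson 95% intervals, and open triangles mark groups with 0 UMIs at the level that 3 counts would give. The C1q chains stand out in macrophage-like cells alone, whereas C1r and C1s lie above 50 CPM in every group but the macrophage-like and oligodendrocyte lineage clusters.

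C1q RNA was concentrated in macrophages. In the WT library 718 of 734 C1q UMIs lay in macrophage-like cells, or 97.8% of them (96.5 to 98.7, exact binomial 95% interval). In the Nuc1 library 162 of 191 did, a share of 84.8% (78.9 to 89.6). Of the 29 Nuc1 UMIs outside the cluster, 16 lay in 1 cell of the motile cilia cluster that had a UMI of 9 of the 14 macrophage markers. Both libraries thus had most of their C1q RNA in few cells.

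In the WT macrophage-like cluster C1qa, the A chain, had 128 UMIs or 533 CPM (444 to 633). C1qb, the B chain, had 288 UMIs or 1198 CPM (1064 to 1345), and C1qc, the C chain, had 302 UMIs or 1256 CPM (1119 to 1406). The intervals of C1qb and C1qc overlapped, and that of C1qa lay below both, although these 3′ counts are not corrected for differences in capture between genes. In the Nuc1 cluster the 3 genes had 72, 63 and 27 UMIs, or 1184 CPM (926 to 1491), 1036 (796 to 1325) and 444 (293 to 646).

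Among the WT cells of the cluster with at least 4 macrophage markers, 13 of 15 had a C1q UMI and 11 had UMIs of all 3 chains. Their C1q UMIs ranged from 0 to 105 per cell, with a median of 53. In the 13 cells with a UMI, the summed C1q level ran from 1031 to 12182 CPM with a median of 2326. The single Nuc1 macrophage had 162 C1q UMIs at 10578 CPM, within the range of the WT cells. Its raw count of C1qa, at 72 UMIs, was above the 43 UMIs of the highest WT cell, and its 27 C1qc UMIs lay below the 54 of the highest. The Nuc1 cell held 15315 UMIs of all genes and the WT cell with 43 C1qa UMIs held 8619. These raw counts therefore do not rank the cells by level. None of the 10 WT and 20 Nuc1 cells of the cluster with fewer than 4 markers had a C1q UMI.

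**Figure D2:**
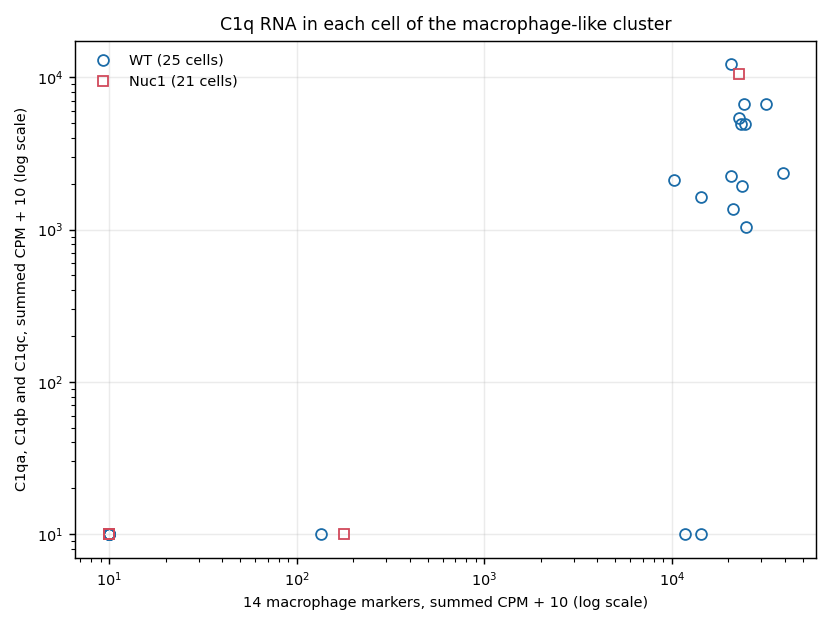
C1q RNA against macrophage marker RNA in single cells of the macrophage-like cluster, each as summed CPM with 10 added, on log scales (blue circles WT, red squares Nuc1). Of the 25 WT cells, 13 lie at the upper right together with 1 of 21 Nuc1 cells, and 9 WT and 19 Nuc1 cells with neither kind of RNA overlap at the lower left.

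Outside the macrophage-like cluster C1q RNA was at the level of traces. A C1q UMI was found in 15 of 1936 other WT cells and in 14 of 1759 other Nuc1 cells. In fibroblast-like cells, which should lack C1q, the share of cells with a UMI was 0.877% in WT (median depth 13255 UMIs) and 0.506% in Nuc1 (14793), against 52.0% of WT macrophage-like cells (7969). Astrocyte-like cells had none in WT (0 of 106 cells, which allows a share of up to 2.83%) and 5 of 345 in Nuc1, a share of 1.45%. Thinned to 5000 UMIs, 2 of 340 Nuc1 astrocyte-like cells (0.588%, 0.0713 to 2.11) and 1 of 1178 Nuc1 fibroblast-like cells (0.0849%, 0.00215 to 0.472) had a C1q UMI. These intervals overlap, so a share above that of the fibroblast-like cells was not detectable at this depth.

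The ratio of C1q to other macrophage RNA was also measured in those traces. C1q made up 16.5% (15.4 to 17.6) of the UMIs of C1q and 8 other macrophage genes in the 15 WT macrophages. In the other cells with fewer than 4 macrophage markers it made up 13.1% (7.34 to 21.0) in WT and 11.2% (6.10 to 18.4) in Nuc1. Both intervals held the value of the WT macrophages. The 1 Nuc1 macrophage had a share of 38.7% (34.0 to 43.5), above both.

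Between genotypes, the C1q chains of the cluster moved in different directions. C1qa had a log2 ratio of Nuc1 over WT of 1.15 (exact conditional interval 0.72 to 1.58), C1qb of −0.21 (−0.63 to 0.19) and C1qc of −1.50 (−2.13 to −0.93). Of all genes tested in this cluster, 16.1% were at least 2-fold higher and 20% at least 2-fold lower in Nuc1. In cells with at least 4 markers the ratios were 2.90 for C1qa, 1.53 for C1qb and 0.24 for C1qc, so that the direction of 2 of the 3 turned. Since a single Nuc1 cell gave all 162 UMIs, a difference between genotypes and a difference between single cells cannot be told apart.

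The proteases C1r and C1s had another distribution: they were spread over fibroblast-like, astrocyte-like and ciliated cells and were low in macrophages. C1r reached 486 CPM (436 to 541) in WT and 591 (571 to 611) in Nuc1 cells of the Inmt and Cyp26b1 type. In both libraries the interval of this group lay above that of every other group. In the WT library the cluster led by Ttr and Gldn followed with 325 CPM, and motile cilia cells with 300.4, whose intervals overlapped. In the Nuc1 library the Ccn3 and Rspo3 type followed with 331 CPM.

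At the low end, C1r was at 37.4 CPM in WT and 49.3 in Nuc1 macrophage-like cells, from 9 and 3 UMIs. The 1 Nuc1 macrophage had no UMI of C1r or C1s, and of the 9 WT C1r UMIs 8 came from 1 cell. In the WT cells with at least 4 markers C1r was at 44.4 CPM. In the oligodendrocyte lineage C1r had 2 UMIs in WT and 1 in Nuc1. The cells rich in C1q were therefore not those rich in the proteases that C1q carries.

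C1s was highest in the Ccn3 and Rspo3 type, with 241 CPM (231 to 252) in WT and 244 (232 to 257) in Nuc1. The next group in both libraries was the cluster led by Ttr and Gldn, with 211 and 206 CPM, and the intervals of neighbours overlapped. The Inmt and Cyp26b1 type, highest for C1r, had 113 CPM of C1s in WT and 90.7 in Nuc1. The Actg2 and Penk type had the lowest C1s of the fibroblast-like types, 52.3 and 63.9 CPM.

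Most fibroblast-like cells had RNA of both proteases. A C1r UMI was found in 78.8% of WT and 96.5% of Nuc1 fibroblast-like cells, and a C1s UMI in 66.2% and 77.1%. UMIs of both were found in 57.7% and 74.8%. With each cell thinned to 5000 UMIs, which left out 16 WT and 8 Nuc1 shallower cells, C1r was found in 50.1% (47.6 to 52.6) and 80.5% (78.1 to 82.7), and C1s in 42.9% (40.5 to 45.4) and 47.5% (44.6 to 50.4). In the oligodendrocyte lineage, a group with almost none of this RNA, 1 of 50 WT cells had a C1r UMI at a median depth of 12448.5, close to that of the fibroblasts.

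The proteases differed in how they compared between libraries. In pooled fibroblast-like cells C1r had 3757 UMIs or 149 CPM in WT and 7391 UMIs or 365 CPM in Nuc1, a log2 ratio of 1.29 (1.24 to 1.35). C1s had 3343 and 2887 UMIs, or 133 and 142 CPM, a log2 ratio of 0.10 (0.03 to 0.18). The makeup of the class differed as well: the C1r-rich Inmt and Cyp26b1 type was 53 of 1597 fibroblast-like cells in WT and 367 of 1186 in Nuc1. With the types weighted equally the log2 ratio of C1r was 0.61.

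Within single fibroblast types C1r was higher in the Nuc1 library throughout. It went from 203 to 331 CPM in the Ccn3 and Rspo3 type (log2 ratio 0.71, 0.61 to 0.80), from 86.9 to 209.8 in the Actg2 and Penk type (1.27, 1.14 to 1.40), from 144 to 277 in the Cldn11 and Thbd type (0.94, 0.80 to 1.08) and from 486 to 591 in the Inmt and Cyp26b1 type (0.28, 0.12 to 0.45). Dividing cells showed 83.2 and 164 CPM. C1s moved less, with log2 ratios from −0.32 in the Inmt and Cyp26b1 type to 0.44 in the Cldn11 and Thbd type.

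In astrocyte-like cells both proteases were lower in Nuc1. C1r had 433 UMIs or 156 CPM (141 to 171) in WT and 866 UMIs or 98.6 CPM (92.1 to 105) in Nuc1, a log2 ratio of −0.66 (−0.83 to −0.49). C1s had 85.2 CPM (74.7 to 96.8) and 52.2 (47.6 to 57.2), a log2 ratio of −0.71 (−0.94 to −0.47). Fibroblast markers summed to 2226 CPM in the WT and 1031 CPM in the Nuc1 astrocyte-like cells. Without the cells that had over 300 CPM of Col1a1, Col3a1, Dcn and Lum, a step chosen after the data were seen, C1r was at 150 and 88.1 CPM (log2 ratio −0.77) and C1s at 78.5 and 47.9 CPM (−0.71). The motile cilia cluster moved the same way, C1r from 300.4 to 229 CPM and C1s from 169 to 109.8 CPM. A single cell held 27 of the 71 WT UMIs of C1s there, and without the highest cell of each library C1s was at 122 and 105 CPM and C1r at 260.4 and 218 CPM. None of these differences reached 2-fold, and 6.99% of all genes tested in astrocyte-like cells were at least 2-fold lower in Nuc1.

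**Figure D3:**
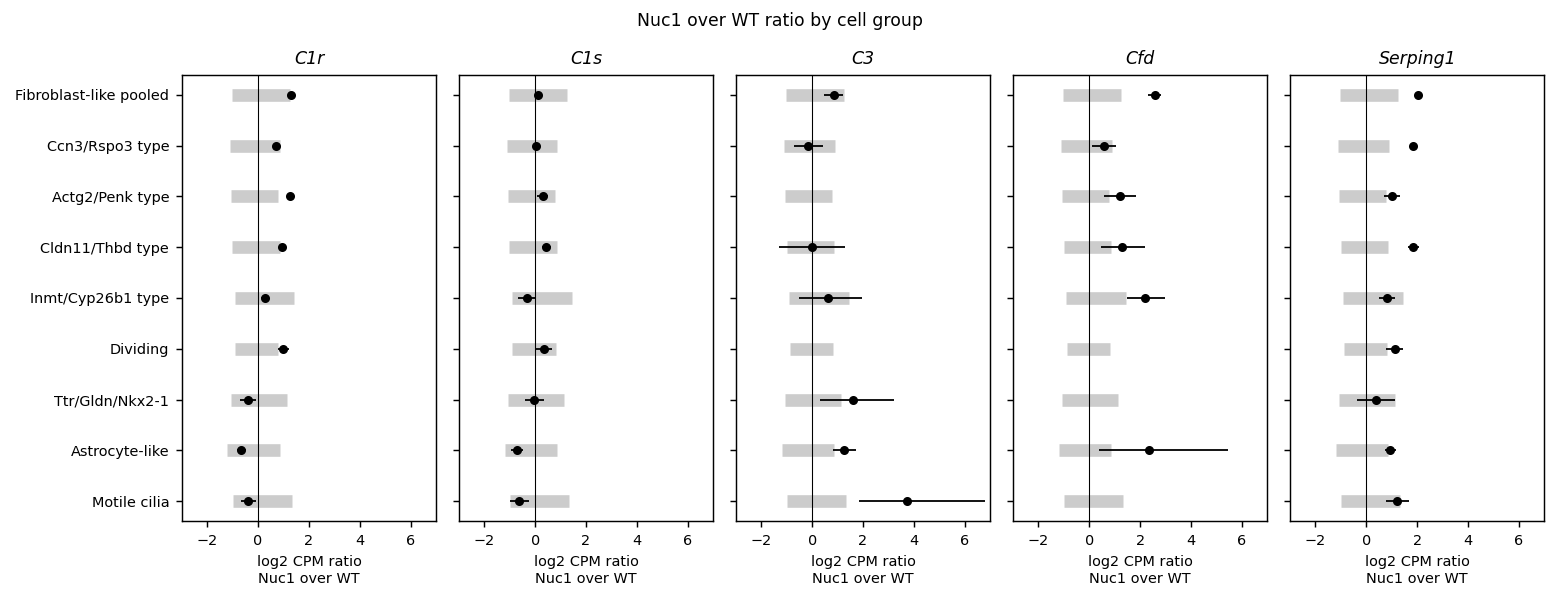
Log2 ratio of CPM, Nuc1 over WT, for C1r, C1s, C3, Cfd and Serping1 by cell group, with exact conditional 95% intervals (points). Grey bars span the 5th to 95th percentile of all genes tested in the group, and a missing point means fewer than 20 UMIs in all. C1r lies above 0 in the fibroblast-like types and below 0 in astrocyte-like cells, whereas Serping1 lies above 0 in every group shown. Its interval holds 0 in the cluster led by Ttr and Gldn. The macrophage-like and oligodendrocyte lineage clusters are not shown.

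C3, the protein on which the pathways converge, was low in fibroblasts. Its levels were highest in motile cilia cells of the Nuc1 library and in macrophage-like cells of the WT library, followed by Nuc1 astrocyte-like cells. In astrocyte-like cells it had 49 UMIs or 17.6 CPM (13.04 to 23.3) in WT and 370 UMIs or 42.1 CPM (37.9 to 46.6) in Nuc1. The log2 ratio was 1.26 (0.82 to 1.72), in a group where 3.77% of all genes tested were at least 2-fold higher in Nuc1. In the motile cilia cluster it had 2 UMIs in 15 WT cells and 150 UMIs in 110 Nuc1 cells, or 4.77 CPM (0.58 to 17.2) and 62.6 CPM (53.0 to 73.5). The log2 ratio there was 3.72 (1.84 to 6.77), with 7.74% of genes at least 2-fold higher.

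C3 RNA lay in a minority of those cells. Among astrocyte-like cells 16.0% in WT and 28.1% in Nuc1 had a C3 UMI, at median depths of 25874 and 24012 UMIs. Thinned to 5000 UMIs the shares were 5.71% (2.13 to 12.02) and 14.4% (10.9 to 18.6). In the WT oligodendrocyte lineage 1 of 50 cells had a C3 UMI, and in fibroblast-like cells the thinned shares were 2.09% and 2.72%. The motile cilia cell with the most had 24 of the 150 UMIs, and without it the level was 53.5 CPM. Without cells rich in fibroblast RNA the astrocyte values were 16.4 and 47.3 CPM, a log2 ratio of 1.53.

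Fibroblast-like cells pooled had 4.004 CPM in WT and 7.15 in Nuc1, and types ran from 0.793 CPM in the Nuc1 Actg2 and Penk type to 15.3 in the Nuc1 Inmt and Cyp26b1 type. In single types the interval of the ratio held 0 for each type tested, the log2 ratio being −0.16 (−0.74 to 0.40) in the Ccn3 and Rspo3 type and 0.60 (−0.50 to 1.96) in the Inmt and Cyp26b1 type. The WT macrophage-like cells had 14 UMIs or 58.2 CPM (31.8 to 97.7) in 7 cells. In the WT cells with at least 4 markers the level was 69.0 CPM. The 1 Nuc1 macrophage had no C3 UMI, with an interval up to 241 CPM that holds the WT level, so no difference was detectable. The cluster led by Ttr and Gldn had 12.4 CPM in WT and 38.1 in Nuc1, from 6 and 24 UMIs.

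Cfd was highest in macrophages, and among the fibroblast types its level was highest in the Inmt and Cyp26b1 type. WT macrophage-like cells had 81 UMIs or 337 CPM (268 to 419), found in 12 of 25 cells, and the Nuc1 cluster 15 UMIs or 247 CPM (138 to 407), of which 13 UMIs lay in the 1 macrophage. In cells with at least 4 markers the direction turned, with 399 CPM (317 to 496) in WT and 849 (452 to 1452) in the 1 Nuc1 cell. Next in both libraries was the Inmt and Cyp26b1 type, with 16 UMIs or 23.0 CPM (13.1 to 37.3) in WT and 592 UMIs or 104 CPM (95.6 to 113) in Nuc1. The remaining groups lay at or below 13.6 CPM. In the WT library the larger Ccn3 and Rspo3 type held more of the Cfd UMIs, 79 at 9.17 CPM.

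The change of Cfd in the Inmt and Cyp26b1 type had a log2 ratio of 2.18 (1.47 to 2.99), where 9.34% of genes tested were at least 2-fold higher in Nuc1. A Cfd UMI was found in 15.1% of WT and 59.7% of Nuc1 cells of this type, at median depths of 12671 and 14551 UMIs, and after thinning in 7.55% (2.10 to 18.2) and 34.2% (29.3 to 39.3). In the WT oligodendrocyte lineage 0 of 50 cells had a Cfd UMI, which allows a share of up to 6%, at a median depth of 12448.5. In astrocyte-like cells Cfd had 2 UMIs in WT and 32 in Nuc1, and without cells rich in fibroblast RNA 1 and 10, with a log2 ratio of 1.73 (−1.09 to 7.17). The log2 ratio was 1.21 (0.57 to 1.85) in the Actg2 and Penk type, 1.30 (0.47 to 2.17) in the Cldn11 and Thbd type and 0.57 (0.10 to 1.03) in the Ccn3 and Rspo3 type, each from at most 81 UMIs per library. Of the 45 Nuc1 UMIs in the Actg2 and Penk type, 12 came from 1 cell.

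Serping1, the inhibitor of C1r and C1s, was expressed by fibroblast-like, astrocyte-like and ciliated cells alike, and in all of these its level was higher in the Nuc1 library. In the Ccn3 and Rspo3 type it went from 628 UMIs or 72.9 CPM (67.3 to 78.8) to 1561 UMIs or 262 CPM (249 to 275), a log2 ratio of 1.85 (1.71 to 1.98). In the Cldn11 and Thbd type it went from 47.8 to 171 CPM, a log2 ratio of 1.84 (1.62 to 2.06). These are the changes of largest size of the inhibitor among the groups with more than 100 UMIs in each library.

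In the other fibroblast types Serping1 changed less. It went from 16.3 to 32.7 CPM in the Actg2 and Penk type (log2 ratio 1.0, 0.69 to 1.31) and from 145 to 252 CPM in the Inmt and Cyp26b1 type (0.80, 0.51 to 1.11). Pooled fibroblast-like cells had 45.5 and 186 CPM, a log2 ratio of 2.03 (1.94 to 2.13), and 1.35 with types weighted equally. Thinned to 5000 UMIs, 18.1% (16.2 to 20.1) of WT and 49.8% (46.9 to 52.7) of Nuc1 fibroblast-like cells had a Serping1 UMI, against 1 of 49 WT cells of the oligodendrocyte lineage.

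Astrocyte-like cells had 224 Serping1 UMIs or 80.6 CPM (70.4 to 91.8) in WT and 1359 UMIs or 155 CPM (147 to 163) in Nuc1, a log2 ratio of 0.94 (0.74 to 1.15). The motile cilia cluster had 105 CPM (76.2 to 141) and 241 CPM (222 to 261), a log2 ratio of 1.20 (0.76 to 1.68). In the cluster led by Ttr and Gldn the interval of the ratio held 0, at 0.38 (−0.36 to 1.13). The inhibitor was thus higher in Nuc1 astrocyte-like cells in which its target proteases were lower.

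Macrophages were the group with the most Serping1 in the WT library, on the strength of few cells. The WT cluster had 385 UMIs or 1602 CPM (1446 to 1770), found in 9 of its 25 cells. In its cells with at least 4 markers the level was 1898 CPM. A single cell held 181 of these UMIs and another 95. Without these 2 cells the level was 555 CPM, still above the other WT groups. The Nuc1 cluster had 3 UMIs, none of them in the 1 macrophage, whose 15315 UMIs allow up to 241 CPM at the upper end of its interval. Since 6 of the 15 WT macrophages had no Serping1 UMI either, the single Nuc1 cell does not tell the genotypes apart.

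The balance of inhibitor and proteases was compared as shares of UMIs within a group, which need no scaling between libraries. Serping1 made up 25.1% (22.2 to 28.0) of the UMIs of C1r, C1s and Serping1 in WT astrocyte-like cells and 50.6% (48.7 to 52.5) in Nuc1 ones. In the motile cilia cluster it made up 18.3% (13.6 to 23.7) and 41.6% (39.0 to 44.2), and in the Ccn3 and Rspo3 type 14.1% (13.1 to 15.1) and 31.3% (29.99 to 32.6). In the Actg2 and Penk type the shares were 10.5% (9.09 to 12.1) and 10.7% (9.18 to 12.3), and there C1r was higher in Nuc1 as well.

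The ratio of the proteases to each other set the Inmt and Cyp26b1 type apart. It had 4.29 C1r UMIs per C1s UMI in WT (3.35 to 5.55) and 6.52 in Nuc1 (5.94 to 7.16). The Ccn3 and Rspo3 type had 0.841 (0.789 to 0.897) and 1.36 (1.27 to 1.46). In astrocyte-like cells the ratio was 1.83 (1.56 to 2.15) and 1.89 (1.68 to 2.12), with intervals that overlapped between libraries. The 4 fibroblast-like types all had a higher ratio in Nuc1, with intervals apart in each.

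**Figure D4:**
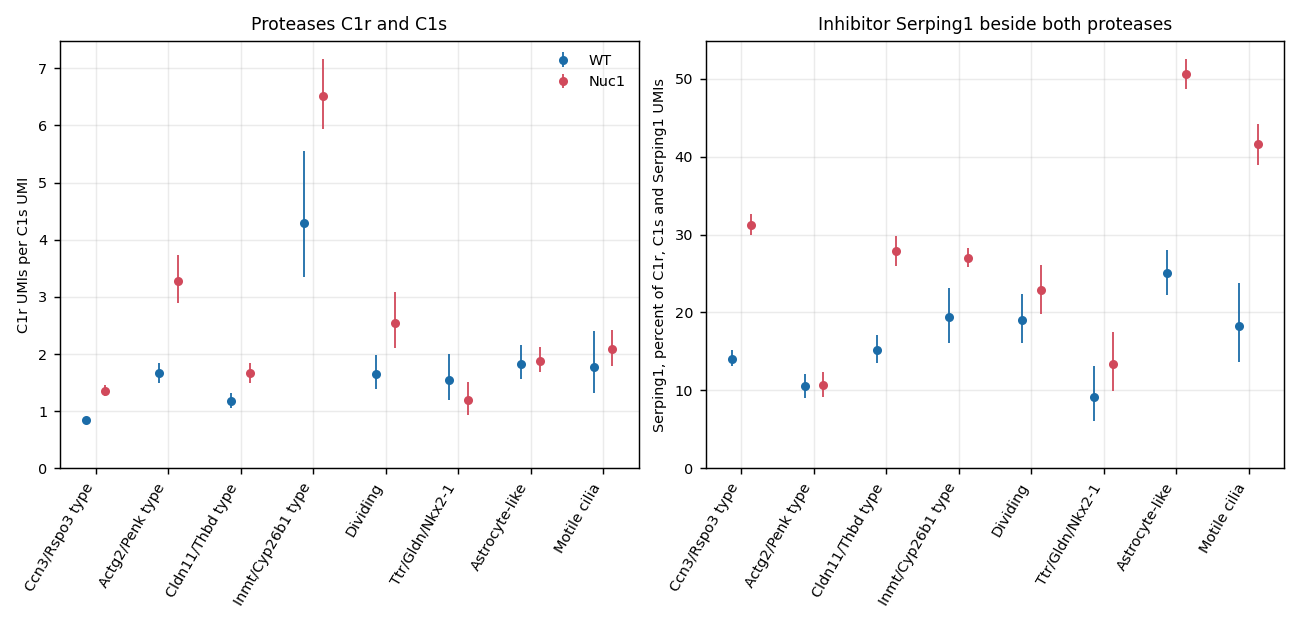
Left, C1r UMIs per C1s UMI, and right, Serping1 as a percent of the UMIs of C1r, C1s and Serping1, by cell group in WT (blue) and Nuc1 (red), with exact 95% intervals. The Inmt and Cyp26b1 type has the highest C1r per C1s in both libraries, and Serping1 reaches 50.6% in Nuc1 astrocyte-like cells against 25.1% in WT.

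Counted over members, 3 of 5 tested in pooled fibroblast-like cells (C1r, Cfd and Serping1) were at least 2-fold higher in Nuc1 and none lower, where 6.88% of 12175 genes tested were higher and 5.3% lower. Their median log2 ratio was 1.29 beside 0.04 for all genes. With the types weighted equally C1r, at 0.61, was no longer 2-fold higher. In astrocyte-like cells 2 of 5 (C3 and Cfd) were higher and none lower, with a median of 0.94 beside −0.12, where 3.77% of all genes were higher and 6.99% lower. In the Ccn3 and Rspo3 type Serping1 alone of 5 members was at least 2-fold higher (3.91% of all genes higher, 5.83% lower). In the Actg2 and Penk type 3 of 4 were (3.23% and 5.73%), in the Cldn11 and Thbd type 2 of 5 (3.64% and 5.11%) and in the Inmt and Cyp26b1 type 1 of 5 (9.34% and 3.94%). Dividing cells had 1 of 3 members higher (3.34% and 3.95%), the cluster led by Ttr and Gldn 1 of 4 (6.14% and 6.05%) and the motile cilia cluster 2 of 4 (7.74% and 5.12%). In the oligodendrocyte lineage, where 7.35% of genes were higher and 12.7% lower, no member had enough UMIs to be tested. In none of these groups other than the macrophage-like cluster was a member at least 2-fold lower in Nuc1.

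A list of 10 genes that respond to tissue dissociation, such as Fos, Egr1 and Atf3, moved between the libraries as well. Its median log2 ratio of Nuc1 over WT was −0.80 in pooled fibroblast-like cells, with 3 of 10 genes at least 2-fold lower, and −1.22 in astrocyte-like cells, with 6 of 10. A list of 20 interferon response genes had medians of 0.19 and −0.38. The part of either response in the complement values was not tested.

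Patterns across groups and libraries were described by Pearson's r of log2(CPM + 10) over 20 points, which share their libraries. C1qa was most like C1qb (r = 0.99), and C1qb most like Pf4 and Trem2, both macrophage genes. C1qc was most like Mrc1. The C1q chains were at most 2.51 CPM outside the macrophage-like cluster, so their r rests mainly on that cluster. Its Nuc1 C1q UMIs came from a single cell. C1s had C1r second among 11247 genes (r = 0.89), and C1r was most like Prelp (r = 0.90), a matrix proteoglycan of connective tissue. C3 was most like Sts, followed by the class I genes RT1-CE5 and RT1-S3 (r = 0.88 and 0.86). Serping1 was most like Oplah (r = 0.87) and Cfd most like Gpsm3 (r = 0.93). Between C1qa and C1r r was −0.34.

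Other complement genes were taken from a list of 49, of which 45 could be used and 19 had at least 100 UMIs. Mbl2, Cfb, Itgam and Cd93 could not be used because their symbols were not listed a single time, so their levels are not described. In pooled fibroblast-like cells 6 of 21 tested were at least 2-fold higher and 1 lower in Nuc1 (median log2 ratio 0.24), beside 6.88% and 5.3% of all genes. Among the 6 is C6, which is lower in Nuc1 within the Inmt and Cyp26b1 type that holds most of it (log2 ratio −0.96, −1.61 to −0.25). In astrocyte-like cells 4 of 14 were higher and 2 lower (median 0.16), beside 3.77% and 6.99%. Clu (clusterin), a secreted regulator of the terminal complex and a chaperone, was the most abundant of them. It had 1971 CPM in WT and 5756 CPM in Nuc1 astrocyte-like cells (log2 ratio 1.55, 1.51 to 1.59), and 630 and 2297 CPM in the Ccn3 and Rspo3 type (1.87, 1.82 to 1.91). It was at least 2-fold higher in Nuc1 in 7 of the 8 groups outside the macrophage-like and oligodendrocyte lineage clusters, the exception being the Inmt and Cyp26b1 type with 657 and 1067 CPM. In the oligodendrocyte lineage it was lower in Nuc1, at 51.2 and 9.36 CPM from 40 UMIs and 1 UMI.

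Among the starters of the lectin pathway, Masp1, a protease related to C1r and C1s, went from 8.82 to 48.5 CPM in the Ccn3 and Rspo3 type (log2 ratio 2.46, 2.09 to 2.84) and from 16.2 to 5.12 CPM in astrocyte-like cells (−1.66, −2.29 to −1.03). Its directions in these 2 groups were those of C1r. Colec12, a scavenger collectin, was in fibroblasts, at 127 CPM in WT and 195 in Nuc1 pooled fibroblast-like cells. Colec11, a circulating collectin, was in astrocyte-like cells, at 11.5 and 10.0 CPM. C1ql1, a C1q-related synaptic protein rather than a chain of C1q, had 238 and 255 CPM in astrocyte-like cells and 461 and 187 CPM in the oligodendrocyte lineage. C1ql3, of the same family, was highest in the WT oligodendrocyte lineage with 24.3 CPM from 19 UMIs, against 0 UMIs in the Nuc1 one. The Nuc1 Cldn11 and Thbd type lay close to it, at 23.3 CPM from 83 UMIs.

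Among membrane regulators, Cd59, which blocks the terminal complex on host cells, went from 152 to 345 CPM in astrocyte-like cells (log2 ratio 1.18, 1.04 to 1.33) and from 52.6 to 46.0 in the Ccn3 and Rspo3 type (−0.19, −0.42 to 0.03). Cr1l (Crry), the rodent regulator of C3 convertases, was lower in Nuc1 in pooled fibroblast-like cells, at 45.4 and 32.4 CPM (−0.48, −0.63 to −0.35). Susd4, a further membrane regulator, was highest in the oligodendrocyte lineage, with 46.1 CPM in WT from 36 UMIs and 18.7 in Nuc1 from 2 (log2 ratio −1.30, −4.40 to 0.66).

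**Figure D5:**
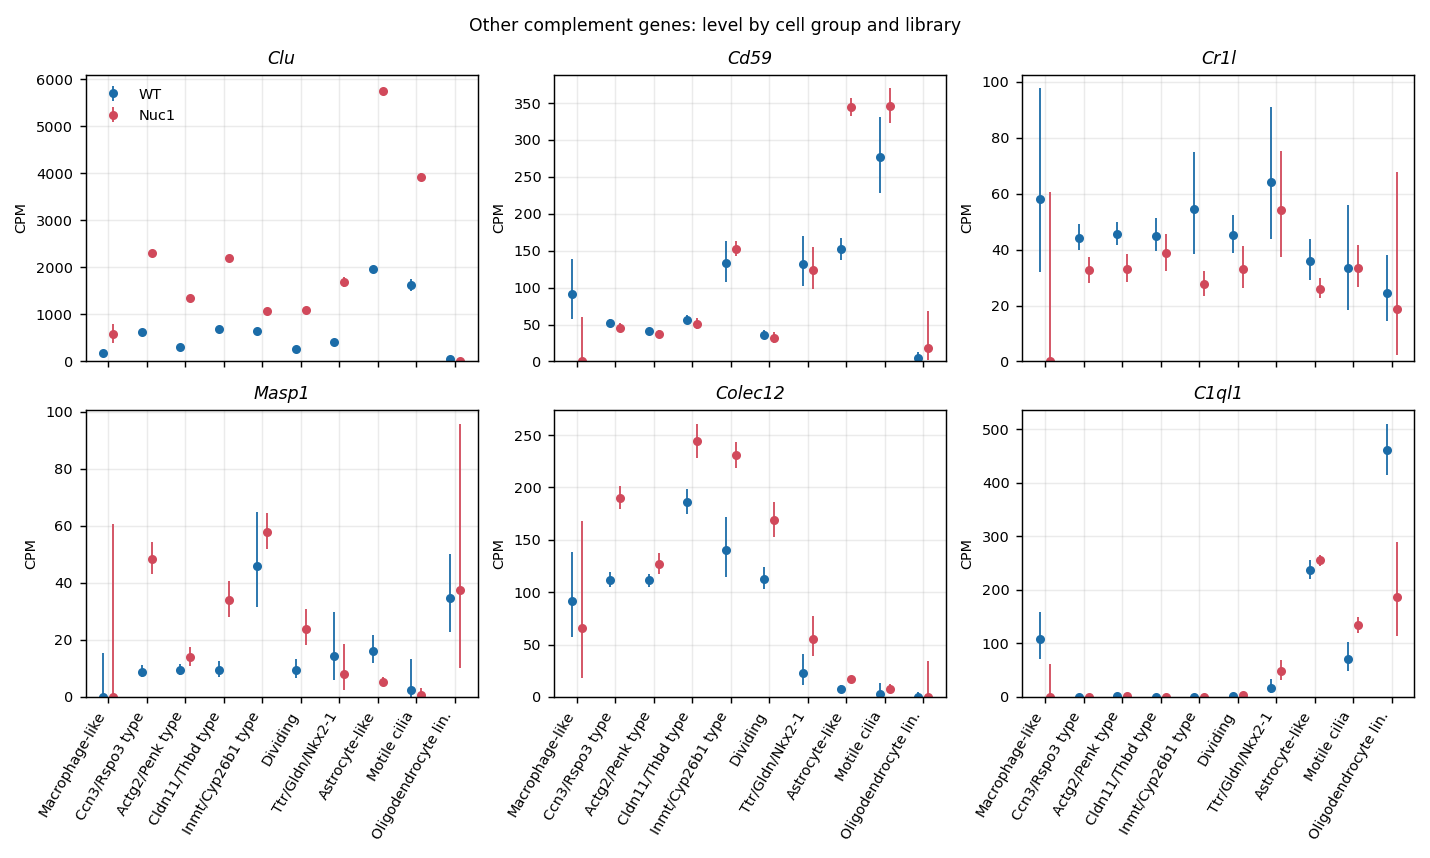
Level (CPM, linear scale) of 6 other complement genes by cell group in WT (blue) and Nuc1 (red), with exact Poisson 95% intervals. Clu reaches 5756 CPM in Nuc1 astrocyte-like cells against 1971 in WT, Colec12 is highest in fibroblast-like types, and Cd59 is highest in astrocyte-like and motile cilia cells of the Nuc1 library.

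Of the convertase and terminal genes, Cfp (properdin), which stabilises the alternative convertase, was a macrophage gene in the WT library, with 54 UMIs or 225 CPM. The Nuc1 cluster had 2 UMIs but holds a single macrophage, so a difference between genotypes and a difference between single cells cannot be told apart. C2 was at or below 8.32 CPM in every group. C4a, C4b and C5 had fewer than 100 UMIs each, and reads of the near-identical C4a and C4b can be lost where they match both. C6 was found in the Inmt and Cyp26b1 type, at 34.4 and 17.7 CPM. C8g, a subunit of C8, lay at 9.47 to 17.1 CPM in the fibroblast types and at 9.35 and 10.6 CPM in astrocyte-like cells. Its levels were similar in motile cilia cells (9.54 and 9.60 CPM) and dividing cells (9.53 and 7.53 CPM). C9 had 13.3 CPM in WT and 3.19 in Nuc1 astrocyte-like cells. Of the fluid phase regulators, Cfi was at or below 11.9 CPM throughout.

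Receptors were few. C5ar2 reached at most 4.41 CPM, in the WT Ccn3 and Rspo3 type. Lrp1, a broad endocytic receptor, had 367 and 443 CPM in pooled fibroblast-like cells, and C1qbp, a mitochondrial protein named for its binding to C1q, 225 and 265 CPM. The receptors C3ar1, C5ar1 and Itgb2 had fewer than 100 UMIs each in the cells kept. This limit runs over all cells and can hide genes of small groups. C5ar1 and Itgb2 each had at least 20 UMIs in the macrophage-like cluster alone.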

How the data were processed

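Cells of the optic nerve were captured with a droplet-based 3′ kit, and 1 WT and 1 Nuc1 library were sequenced. The deposited values are raw UMI counts per gene and barcode, made by the authors with Cell Ranger 3.1.0 and STAR 2.7 and handled with Seurat 3.1.0 and 3.1.1, per the submitters' processing notes. The genome build is not given in the sources used here. The deposited files do not map cells to animals, and their number is not given, so each library was treated as 1 sample.

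A barcode was kept if it had 500 genes or more and no more than 20% of its UMIs came from 13 mitochondrial genes. Scrublet (scanpy 1.11.5, expected rate 2%) called 7 WT and 13 Nuc1 cells (0.356% and 0.725%) as doublets, which were left out. At such low rates doublets can remain. Libraries were integrated by anchors in Seurat 5.3.0 (R 4.3.3) on 2000 genes without complement genes, and clustered on 30 components at resolution 0.5. Clusters were named from marker lists. A cluster that passed no list is called by its leading genes. The 99 gene symbols listed more than a single time were not used.

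UMI counts were summed per cell group and library and divided by the group's total (CPM). Intervals at the 95% level are exact (Poisson for levels, Clopper-Pearson for shares, conditional binomial for ratios). A count of 0 allows up to 3 counts. UMIs correct for amplification, but intervals and floors cover counting error only. Ratios were compared with a 2-fold limit in genes with at least 20 UMIs over both libraries, and no p-value was computed. Shares were also computed after thinning cells to 5000 UMIs. The intervals and ratios were tested on simulated Poisson counts. Filtering, integration, clustering, naming and thinning were not simulated.

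The genes described were the 8 members in every group and, of 49 other complement genes, those with at least 100 UMIs. Of these, 1 gene is not reported here. For each member the 3 genes most like it were found. Members and lists were chosen with earlier results of these data known. Alternatives covered the filters, doublets, integration, resolution, features, grouping by markers, scaling (TMM in edgeR 4.0.16, or centring on the median), thinning, cluster weights and RNA of other cells. Leaving out cells of the macrophage-like cluster with under 4 markers, cells with over 300 CPM of fibroblast RNA, ciliated cells with macrophage RNA or the highest ciliated cell was added after the data were seen.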

Additional observations from a re-analysis of the deposited data

Results flagged for a closer look

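The proteases C1r and C1s differed in direction between cell classes. The log2 ratio of Nuc1 over WT of C1r was −0.66 in astrocyte-like cells and 1.29 in pooled fibroblast-like cells (0.61 with the fibroblast types weighted equally). That of C1s was −0.71 in astrocyte-like cells and 0.10 in fibroblast-like cells. The counting intervals of each pair do not overlap, but with 1 library per genotype the difference was not tested over samples.

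C1q RNA was also found in barcodes that the filters left out of the comparisons. The WT library had 11 C1q UMIs in 146 such barcodes, of which 4 had a UMI of at least 4 macrophage markers. The Nuc1 library had 6 C1q UMIs in 149 such barcodes, all in 1 barcode with 4 macrophage markers and 22.2% mitochondrial UMIs.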

How the results depend on the processing

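With a limit of 10% mitochondrial UMIs the share of C1q UMIs in macrophage-like cells was 91.4% in WT and 95.3% in Nuc1. The Nuc1 share was 93.2% with no doublets left out, with complement genes kept among the features, and with cells grouped by markers without clustering.

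In macrophage-like cells the log2 ratio of C1qa was 1.78 at resolution 0.2, 2.30 without clustering, 1.96 after thinning and 2.90 without cells under 4 markers. In the same order C1qb gave 0.42, 0.94, 0.42 and 1.53, and C1qc gave −0.88, −0.21, −0.53 and 0.24, the last a reversed direction. At the 10% mitochondrial limit C1qb gave −1.46 and C1qc −2.31. C1qa was above 0 in 12 of 12 alternatives, C1qb in 4 and C1qc in 1.

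In fibroblast-like cells C1r, C1s, C3, Cfd and Serping1 were above 0 in each of 13 alternatives. Of the 12 with an interval, the interval excluded 0 in 9 for C1s and in 11 for C3. The lowest ratio of C1s was 0.07. At the 10% mitochondrial limit the log2 ratios were 1.5 for C1r, 0.20 for C1s, 1.25 for C3 and 2.27 for Serping1. Without clustering C1r gave 1.17 and Serping1 1.91, and after thinning Serping1 gave 2.15. With clusters weighted equally C1r gave 0.61, C3 0.26, Cfd 1.77 and Serping1 1.35. Except for the thinning, the mitochondrial limit and the weights, which change the cells or their shares by construction, the cause was not tested.

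The number of members with the same highest group in both libraries was 5 at the 10% mitochondrial limit and without clustering, 4 at resolution 0.2 and 6 otherwise. No paired analysis was possible because only 1 library stands for a genotype. C1q in Nuc1 macrophages is limited by the number of cells, 1, and C3 and Cfd in several groups by low counts.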
